A study of Homo sapiens with 18 samples.

Results

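Genes were compared for whether their response to filtered wood smoke differed between BEAS-2B and A549 cells. The measure was the log2 change of a gene with filtered smoke in BEAS-2B cells minus its log2 change in A549 cells, called the line difference below and positive where BEAS-2B responded more upwards. It used 12 of the 18 libraries of the study, 3 in each of 4 groups: A549 with clean air, A549 with filtered smoke, BEAS-2B with clean air and BEAS-2B with filtered smoke. Of 17147 genes tested, 113 had a line difference with an adjusted p under 0.05, which is 0.659% (edgeR quasi-likelihood test of the interaction, Benjamini-Hochberg adjustment). Of these, 44 had a higher response in BEAS-2B (0.257% of genes tested) and 69 a lower one (0.402%).

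A549 is a carcinoma line taken as a model of alveolar epithelium, and BEAS-2B is an immortalised line from bronchial epithelium. The labels call both genotypes wild type, and each is 1 established line, so a difference between them is a difference between 2 lines and not between 2 parts of the lung. The lines were also grown in different media, a serum-supplemented RPMI for A549 and KGM medium for BEAS-2B, so line and medium cannot be told apart. Cells were seeded on 24 mm porous inserts, 400000 A549 or 500000 BEAS-2B cells 24 h ahead, and then faced the gas stream directly from above for 4 h, with medium below the insert (air-liquid exposure). That medium was the same in all groups, as were a flow of 100 mL/min and 85% relative humidity. The series title names carbonyl compounds of the gas phase, the part of the smoke that passes a filter. The surfactant genes SFTPA1 and SFTPB, which define alveolar type 2 cells, were at 0 in all 12 libraries, and SFTPC and SFTPD averaged at most 0.282 CPM (counts scaled to sequencing depth and library composition) in any group. Of 5 basal bronchial markers, KRT5 (113.6 against 0.0897 CPM), KRT14 and NGFR were higher on average in BEAS-2B than in A549 controls, and KRT15 (4.50 against 6.46 CPM) and TP63 (9.45 against 16.02 CPM) were lower.

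The reactive carbonyls of smoke, such as acrolein and formaldehyde, bind thiols and amines of proteins and deplete glutathione. Cells meet such a load with several programmes: NRF2 drives antioxidant and conjugating enzymes, HSF1 drives chaperones, ATF4 drives amino acid and protein stress genes, and MAP kinases drive immediate early genes within the first hour or so. A549 cells carry a mutation in KEAP1, the repressor of NRF2, and hold many NRF2 targets high at rest.

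Gene counts came to 14.96 to 20.2 M per library in A549 and 28.5 to 54.4 M in BEAS-2B cells. TMM factors, which correct for a few genes taking many of the reads, were 1.04 to 1.23 in A549 and 0.990 to 1.22 in BEAS-2B controls, but 0.595 to 0.763 with filtered smoke in BEAS-2B. Reads mapped to several places made up 10.3 to 12.03% of A549 and 10.8 to 19.2% of BEAS-2B libraries with smoke, against 7.69 to 10.2% of the controls. Control 1 of BEAS-2B lay apart from controls 2 and 3 towards the exposed libraries (second principal component 30.4 against 92.8 and 101), and filtered 3 of A549 lay towards its controls (-17.0 against -79.6 and -72.2). The number of line differences that passed was 775 without that control and 108 without that A549 library. The labels do not say whether the 3 samples of a group were separate cultures, so the spread behind each p-value may be technical.

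Most of the response was shared. Over 12270 genes measured in both lines, the log2 changes had a correlation of 0.827 across genes, with a wider spread in BEAS-2B (SD 1.12) than in A549 (0.838). These genes share libraries and are not independent replicates. Tested within each line, 5638 genes passed in A549 (32.9%; 2732 or 15.9% higher and 2906 or 16.9% lower), and 9574 passed in BEAS-2B (55.8%; 4690 or 27.4% higher and 4884 or 28.5% lower). Of the 4089 genes that passed in both lines, 4056 moved in the same direction and 33 in opposite directions. The sample numbers of the labels were taken to pair the control and smoke libraries of a line, which was less clear in BEAS-2B than in A549. With that number as a block 1664 line differences passed (9.7%; 880 or 5.13% higher and 784 or 4.57% lower), all 113 of the unblocked fit among them. The blocked values below rest on that pairing. Adjusted p values below are from the unblocked fit unless the block is named. Where an adjusted p is given as up to a value, that is the largest with 1 library left out. Several of these fits may lose the same call, and 27 of the 113 calls passed in every one of them. Blocked counts in the gene lists below are to be set against the 5.13% higher and 4.57% lower of all genes tested.

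**Figure D1:**
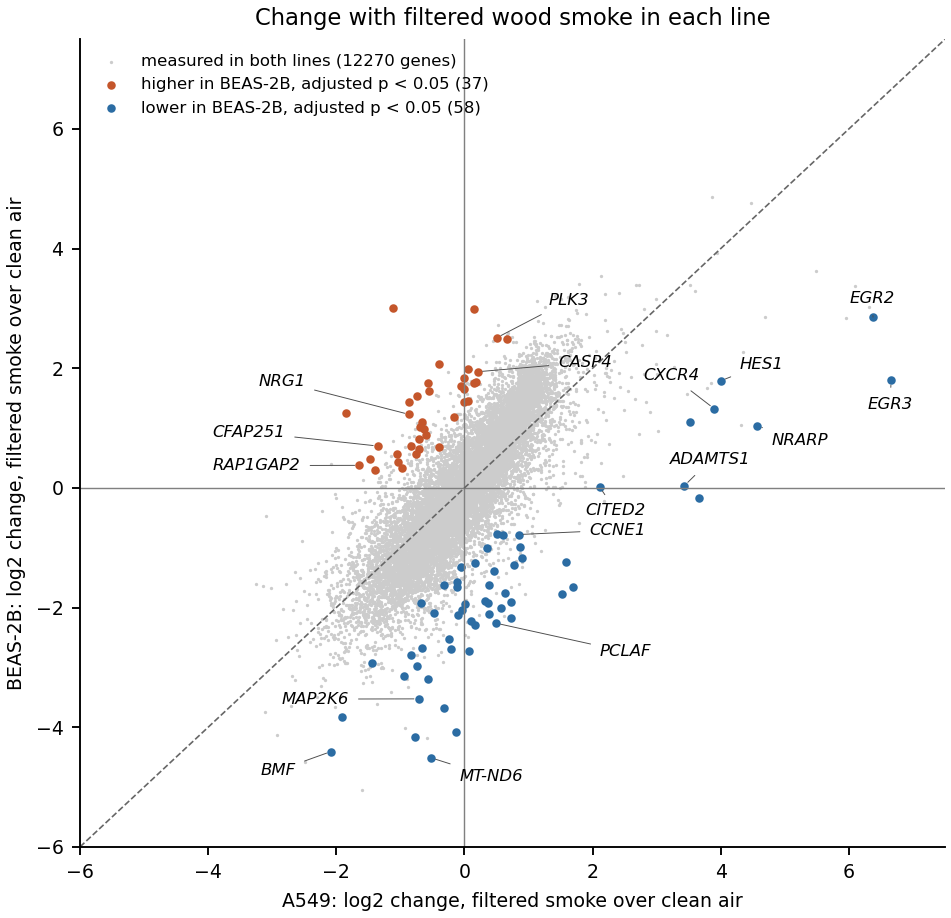
Log2 change with filtered smoke over clean air in A549 (x axis) and BEAS-2B (y axis), 1 point per gene measured in both lines, with the dashed line marking equal change. Grey points lie along that line (r 0.827 over 12270 genes), while the coloured points are the 95 genes measured in both lines whose line difference passed, with EGR2, EGR3, NRARP and HES1 far to the right and NRG1 in the quadrant of opposite directions.

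The 113 genes fell into classes by what each line did alone. In 31 the lines moved in opposite directions with both changes passing, 19 of them up in BEAS-2B and down in A549. In 58 only the BEAS-2B change passed, 39 of them lower than in A549, and in 8 only the A549 change passed. The other 16 moved the same way in both lines, 6 of them further in A549 and 10 further in BEAS-2B. With the block the same classes held 117, 703, 199, 40 and 605 genes. All 113 differences were at least 2-fold, the smallest being 1.08 and the median 2.21 in absolute log2 terms, and 88 of the genes were protein-coding. The median SE of a line difference was 0.351 over genes measured in both lines. Small differences could thus hardly pass, and these sizes are partly set by the threshold.

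NRARP and HES1, feedback genes of the Notch pathway, rose further in A549 than in BEAS-2B. Notch receptors, when bound by a ligand on a neighbouring cell, release an intracellular domain that joins the DNA-binding protein RBPJ and switches on HES and HEY repressors and NRARP. NRARP (Notch-regulated ankyrin repeat protein, which binds the complex and limits it; GRCh38 chromosome 9, 137300482 to 137302251) stood at 1.03, 0.930 and 1.23 CPM in A549 controls and at 15.4, 28.9 and 31.5 CPM with filtered smoke. In BEAS-2B it went from 2.31, 2.25 and 2.02 CPM to 3.57, 4.75 and 5.14 CPM. The groups did not overlap in either line, and every exposed A549 library lay above every BEAS-2B library. The log2 change was 4.57 ± 0.31 (SE) in A549 and 1.04 ± 0.27 in BEAS-2B, a line difference of -3.54 ± 0.40 (adjusted p = 0.00344). With any 1 library left out the adjusted p was at most 0.0245 (without A549 control 2).

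HES1, a repressor of differentiation genes and the best known Notch target (chromosome 3, 194136145 to 194138732), was singled out after its values were seen. It rose from 7.78, 4.94 and 9.09 CPM to 74.7, 132 and 142 CPM in A549, and from 18.3, 16.7 and 12.4 CPM to 42.4, 59.9 and 61.5 CPM in BEAS-2B. The control level was thus lower in A549 and the exposed level higher, with no overlap between lines in either condition. The line difference was -2.21 ± 0.40 (adjusted p = 0.0255), which was lost in 6 of 12 fits with 1 library left out (up to 0.0782, without A549 control 2). A list of 34 Notch pathway genes was drawn up after these values were known, and 31 of them were tested. NRARP and HES1 were the 2 with a passing line difference, both lower, and 0 were higher; the list median was -0.37 against 0.00 over all genes tested. With the block 1 of the 31 was higher and 4 were lower, where 5.13% of all genes tested were higher and 4.57% lower. HEY1 (2.89 in A549 and 1.27 in BEAS-2B; adjusted p = 0.20) and HES7 (3.14 and 1.40; 0.184) lay the same way without passing. HES4, which rose in both lines (2.73 and 3.396; 0.526), HEYL (0.21 and 0.97; 0.427) and HES2 (-0.89 and 0.42; 0.197, and 0.0301 with the block) lay the other way without passing. NOTCH1, a receptor, fell in both lines (-1.58 and -1.26), as did RBPJ (-1.53 and -1.85).

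The promoter windows of HES1 and NRARP are shown because these are the Notch genes whose response differed. They are RefSeq windows of 300 bases on GRCh38.p14, from 250 bases before to 50 after the annotated start. Capitals mark matches, on either strand, of the heat shock element core GAANNTTC, the antioxidant response element cores TGACNNNGC and TGAGNNNGC, AP-1 TGACTCA, CRE TGACGTCA and the RBPJ core TGGGAA, the last added after the values were seen. The HES1 window (chr3:194135898-194136197, plus strand) holds 2 RBPJ cores and 1 heat shock element core, which overlaps the second of them. The NRARP window (chr9:137302222-137302521, minus strand) holds no match of any of the 6. Of 35116 windows in the table, 24% hold the RBPJ core, 6.77% GAANNTTC, 13.3% TGACNNNGC, 18.3% TGAGNNNGC, 4.95% TGACTCA and 1.85% TGACGTCA.
HES1: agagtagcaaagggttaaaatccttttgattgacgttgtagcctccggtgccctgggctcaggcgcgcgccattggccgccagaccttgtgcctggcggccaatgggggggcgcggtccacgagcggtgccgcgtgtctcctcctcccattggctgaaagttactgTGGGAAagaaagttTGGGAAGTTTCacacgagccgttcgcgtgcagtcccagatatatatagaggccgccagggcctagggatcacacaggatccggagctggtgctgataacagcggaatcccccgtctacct
NRARP: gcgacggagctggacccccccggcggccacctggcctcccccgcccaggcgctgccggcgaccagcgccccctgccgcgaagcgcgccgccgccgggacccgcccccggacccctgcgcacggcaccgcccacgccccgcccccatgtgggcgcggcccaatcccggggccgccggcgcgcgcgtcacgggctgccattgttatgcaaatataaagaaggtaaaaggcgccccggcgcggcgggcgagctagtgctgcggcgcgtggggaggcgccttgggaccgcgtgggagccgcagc

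EGR2 and EGR3, early growth response genes that encode zinc-finger transcription factors switched on by MAP kinases, also rose further in A549. EGR2 (chromosome 10, 62811996 to 62919900) went from 0.540, 0.280 and 0.430 CPM to 21.7, 42.5 and 38.8 CPM in A549. In BEAS-2B it went from 0.360, 0.851 and 0.403 CPM to 3.18, 5.33 and 3.32 CPM. Controls of the lines overlapped and exposed libraries did not. The line difference was -3.52 ± 0.58 (adjusted p = 0.0145), and among the 12 fits with 1 library left out it was lost only without A549 control 2 (0.0613). It was also lost when counts were thinned to equal depth, and that of EGR3 under a stricter low-count filter. For EGR3 the mean with smoke was 20.3 ± 9.02 CPM (SD, n = 3) in A549 and 1.75 ± 0.943 CPM in BEAS-2B, from 0.206 ± 0.120 and 0.501 ± 0.360 CPM (line difference -4.86 ± 0.89, adjusted p = 0.0255, up to 0.0938 without A549 control 2).

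Most other immediate early genes had no passing line difference. Of 34 in the list, 26 rose in A549 and 24 in BEAS-2B when each line was tested alone, where 15.9% and 27.4% of all genes tested rose. EGR2 and EGR3 were the 2 whose line difference passed, with 0 higher (median -0.26). With the block 6 were lower and 2 higher. FOS, a subunit of AP-1, rose by 3.86 ± 0.72 in A549 and 4.86 ± 0.76 in BEAS-2B (adjusted p of the difference 0.613). EGR1 rose by 3.01 and 1.90, and its 3 BEAS-2B controls were at 7.19, 48.1 and 6.80 CPM, so control 2 lay closer to the exposed libraries (65.4, 96.2 and 70.8 CPM) than to the other controls. The EGR1 difference was -1.11 ± 0.89 and +0.46 without that control. JUN, a partner of FOS, had a difference of -1.41 ± 0.47 (adjusted p = 0.181; 0.0456 with the block), and KLF4, an epithelial zinc-finger factor, one of -1.26 ± 0.28 (0.0612; 0.012 with the block).

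Other genes that rose further in A549 were of varied function. CITED2, which competes with HIF-1 for a shared coactivator, went from 9.94, 18.04 and 14.3 CPM to 43.8, 71.4 and 67.8 CPM in A549. In BEAS-2B it stayed at 117, 117 and 105 CPM before and 123, 111 and 108 CPM after. Its line difference was -2.10 ± 0.33 (adjusted p = 0.013), passing with any 1 library left out (up to 0.0465, without BEAS-2B filtered 2). ADAMTS1, a secreted protease of the matrix, rose from 0.265 ± 0.061 to 2.84 ± 1.85 CPM in A549, and was 58.7 ± 16.7 and 60.3 ± 20.1 CPM in BEAS-2B (-3.396 ± 0.67, adjusted p = 0.0392, up to 0.131 without A549 control 2). ANKRD37, a hypoxia-responsive ankyrin repeat gene, rose in both lines, from 1.61 to 18.5 CPM and from 6.58 to 14.2 CPM (-2.42 ± 0.46, adjusted p = 0.0305, up to 0.102 without A549 control 2). CXCR4, a chemokine receptor, rose from 0.475 to 7.21 CPM in A549 and from 0.429 to 1.06 CPM in BEAS-2B (-2.57 ± 0.45, adjusted p = 0.0193, up to 0.0716 without A549 control 1). The call of ANKRD37 was lost in counts that ignore strand, and that of CXCR4 under a stricter low-count filter and after thinning. CITED2 and CXCR4 were singled out after their values were seen. In CITED2 and ADAMTS1 the line without a rise was the one with the higher control level.

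NRG1, CFAP251 and DUSP4 were among the genes that moved in opposite directions. NRG1, a ligand of ERBB receptors, fell in A549 from 279.9, 285 and 299.5 CPM to 156, 144 and 177 CPM. In BEAS-2B it rose from 2.90, 2.69 and 2.27 CPM to 7.14, 6.46 and 4.88 CPM. The groups did not overlap in either line, and the level in A549 stayed far above that of BEAS-2B. The changes were -0.86 ± 0.18 (adjusted p = 0.00545) and 1.23 ± 0.19 (0.000408), with a line difference of 2.09 ± 0.26 (0.00518). It passed with any 1 library left out, at most at 0.0248 (without A549 control 2). RAP1GAP2, which switches off the small GTPase RAP1, fell from 27.8 ± 1.88 to 8.91 ± 1.40 CPM in A549, with 10.4 ± 1.48 and 13.6 ± 2.62 CPM in BEAS-2B, a change that did not pass (0.38, adjusted p = 0.117; line difference 2.02 ± 0.28, 0.00624). CFAP251, a protein of the ciliary axoneme, fell from 5.34 to 2.08 CPM in A549 and rose from 24.3 to 39.5 CPM in BEAS-2B (2.05 ± 0.28, 0.00624). DUSP4, a phosphatase that switches off MAP kinases, fell from 317 to 196 CPM and rose from 48.6 to 98.7 CPM (1.72 ± 0.33, 0.0298, up to 0.114 without A549 control 2, and not passing after thinning).

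CFLAR and TNFRSF10A, genes of death receptor signalling, moved in opposite directions too. TRAIL receptors at the cell surface recruit caspase 8, and CFLAR (also called c-FLIP) occupies the caspase's place in that complex and blocks it. CFLAR (chromosome 2, 201116104 to 201176687), singled out after its values were seen, went from 91.2, 93.3 and 83.6 CPM to 59.8, 54.7 and 58.8 CPM in A549. In BEAS-2B it went from 20.2, 24.9 and 23.3 CPM to 50.5, 42.8 and 42.8 CPM. The exposed levels of the lines came close to each other without overlapping, from control means of 89.4 and 22.8 CPM. The line difference was 1.62 ± 0.22 (adjusted p = 0.00618, up to 0.0326 without A549 control 2). The TRAIL receptor gene TNFRSF10A fell from 34.9 ± 3.86 to 19.6 ± 4.10 CPM in A549 and rose from 7.87 ± 0.545 to 12.9 ± 0.0706 CPM in BEAS-2B (1.54 ± 0.26, adjusted p = 0.0168, up to 0.0782 without A549 control 2, and not passing on library size alone). Its neighbour TNFRSF10B fell from 388 to 197 CPM in A549, while its BEAS-2B values, 61.7 and 77.6 CPM, did not pass (1.31 ± 0.27, adjusted p = 0.0476, up to 0.152 without A549 control 2, and lost under 4 of the 14 other settings). BMF, a BH3-only protein that promotes apoptosis, fell in both lines and further in BEAS-2B, from 74.1, 69.8 and 71.4 CPM to 4.73, 2.95 and 2.56 CPM, against 18.2, 12.7 and 16.2 CPM to 2.63, 3.59 and 4.85 CPM in A549 (-2.33 ± 0.37, adjusted p = 0.0134, up to 0.0527 without A549 control 2, and lost with all 18 libraries). Exposed BMF levels thus overlapped between the lines. In a list of 26 death receptor genes, drawn up after values were seen, 25 were tested, of which 4 were higher (TNFRSF10A, TNFRSF10B, CFLAR and TRAF1) and 1 lower (BMF), with a median of 0.21. With the block 6 were higher and 2 lower, FAS (0.99 ± 0.30) and BID (0.93 ± 0.32) joining the first.

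**Figure D2:**
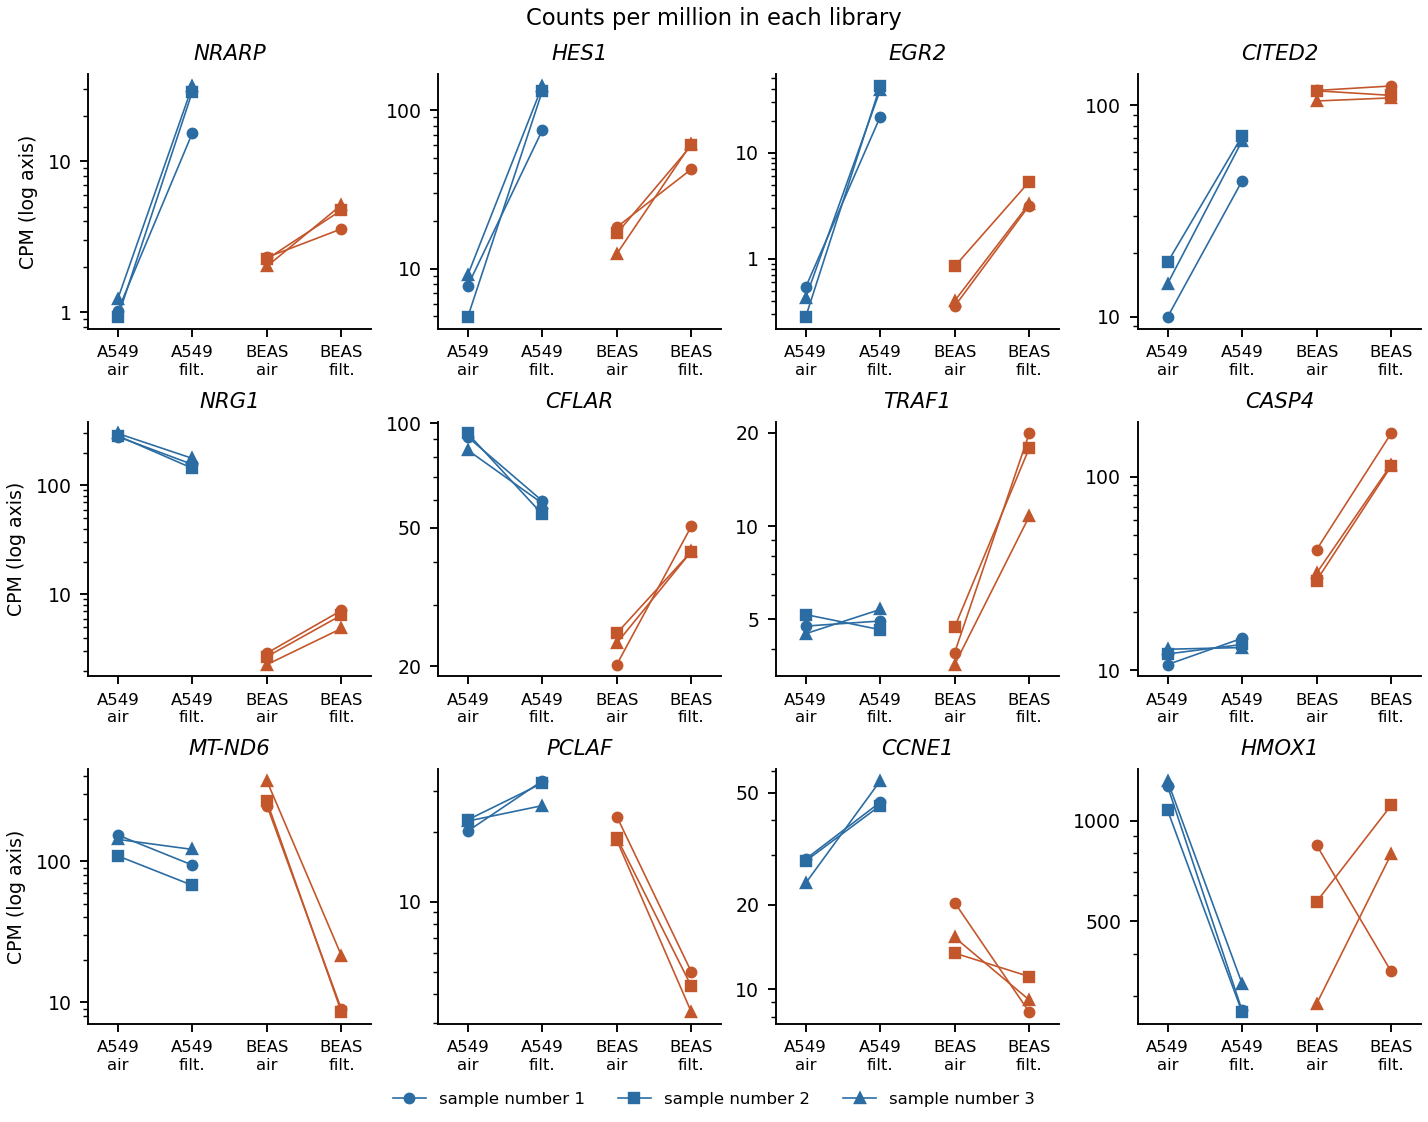
CPM on a log axis for 12 genes in each of the 12 libraries, with lines joining control (air) and filtered smoke (filt.) libraries of the same sample number, blue for A549 and orange for BEAS-2B. NRARP, HES1, EGR2 and CITED2 climb more steeply in A549, NRG1 and CFLAR move in opposite directions, TRAF1 and CASP4 climb in BEAS-2B, MT-ND6 and PCLAF drop in BEAS-2B, and HMOX1 falls in all 3 A549 pairs and in BEAS-2B pair 1.

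Inflammatory and caspase genes rose in BEAS-2B with no passing change in A549. TRAF1, an NF-kB target that adapts TNF receptor signals, was at 3.91, 4.72 and 3.57 CPM in BEAS-2B controls and 19.9, 17.9 and 10.8 CPM with smoke. In A549 it stayed between 4.49 and 5.38 CPM in all 6 libraries. The line difference was 1.94 ± 0.34 (adjusted p = 0.0187, up to 0.0782 without A549 control 2). CASP4, the caspase that senses intracellular endotoxin (chromosome 11, 104942866 to 104969436; singled out after its values were seen), rose from 42.0, 29.1 and 31.7 CPM to 167, 113 and 115 CPM in BEAS-2B, with 11.9 ± 1.09 and 13.8 ± 0.773 CPM in A549 (1.73 ± 0.29, adjusted p = 0.0156, up to 0.0640 without A549 control 2). LIF, a cytokine of the IL-6 family, fell from 98.8 ± 6.63 to 60.8 ± 2.60 CPM in A549 and rose from 24.3 ± 4.59 to 43.1 ± 12.2 CPM in BEAS-2B (1.53 ± 0.30, adjusted p = 0.0379, up to 0.117 without A549 control 2, and lost on library size alone and with all 18 libraries).

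Of 27 NF-kB targets and cytokines tested, TRAF1 and LIF passed and 0 were lower, with a list median of 0.84 against 0.00 over all genes. Within each line 19 of the 27 rose in BEAS-2B and 6 in A549, where 27.4% and 15.9% of all genes tested rose. With the block 11 were higher and 1 lower, the list then including CXCL3 (1.89 ± 0.53, unblocked adjusted p = 0.115, blocked 0.0048), ICAM1 (1.67 ± 0.66; 0.252 and 0.0046), CCL2 (1.62 ± 0.57; 0.20 and 0.00778) and RELB (1.18 ± 0.47; 0.257 and 0.0188). IL6 rose in both lines, from 0.760, 0.650 and 1.23 CPM to 2.37, 2.22 and 1.70 CPM in A549 and from 5.73, 4.94 and 2.30 CPM to 38.3, 36.2 and 30.9 CPM in BEAS-2B (1.76 ± 0.48, adjusted p = 0.103; 0.0196 with the block). CXCL8, the neutrophil chemokine, rose by 2.21 ± 0.28 and 1.93 ± 0.27, a difference of -0.28 ± 0.37 (0.735). The chemokines thus did not all share the orientation of TRAF1.

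Among p53 targets the passing line differences were higher in BEAS-2B. PLK3, a stress kinase, rose from 8.10, 6.15 and 4.72 CPM to 32.9, 42.3 and 33.0 CPM in BEAS-2B, while A549 controls (27.8, 33.6 and 24.1 CPM) and exposed libraries (40.6, 51.0 and 29.8 CPM) overlapped. Its line difference was 2.01 ± 0.35 (adjusted p = 0.0193, up to 0.0792 without A549 control 2). Of 32 p53 targets tested, 3 were higher (PLK3, TNFRSF10A and TNFRSF10B) and 0 lower, with a median of 0.49. With the block 11 were higher and 1 lower, CDKN1A (p21, which halts the cell cycle; 1.15 ± 0.33, adjusted p = 0.124, blocked 0.0116), BAX (1.03 ± 0.47; 0.315 and 0.0172) and AEN (1.11 ± 0.28; 0.0802 and 0.0075) among the 11. MDM2, the ubiquitin ligase of p53, fell in both lines, from 388 ± 19.4 to 71.9 ± 36.0 CPM and from 45.5 ± 9.88 to 13.3 ± 0.685 CPM (0.65 ± 0.42, 0.466). Among 27 MAP kinase feedback genes DUSP4 alone passed, and with the block 10 were higher and 1 lower (median 0.44).

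Transcripts from the minus strand of the mitochondrial genome dropped in BEAS-2B. MT-ND6, the only protein gene of that strand and a subunit of respiratory complex I (mitochondrial positions 14149 to 14673), went from 248, 266 and 371 CPM to 8.90, 8.52 and 21.4 CPM in BEAS-2B. In A549 it went from 153, 109 and 143 CPM to 93.9, 67.5 and 121 CPM, with overlap between the groups. The changes were -4.51 ± 0.39 (adjusted p = 4.13e-05) and -0.52 ± 0.33 (0.239), a line difference of -3.99 ± 0.49 (0.00518), which passed with any 1 library left out (at most 0.0248, without A549 control 2). Of 6 minus-strand transcripts tested, all 6 fell in BEAS-2B and 0 passed in A549, and 2 line differences passed, with 4 under the block and a median of -3.42. The other passing one was the proline tRNA gene MT-TP, at 66, 73 and 78 raw counts in BEAS-2B controls and 2, 4 and 5 with smoke, against 60, 56 and 52 and then 19, 21 and 48 in A549 (-3.38 ± 0.54, adjusted p = 0.0134, up to 0.0569 without BEAS-2B filtered 2, and lost with all 18 libraries and in counts that ignore strand).

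On the plus strand, of 18 transcripts tested, 0 line differences passed without the block (median 0.20), and MT-ND3 was the 1 that passed with it. MT-CO1 was at 13520 ± 1106 and 10930 ± 4409 CPM in A549 and 8030 ± 646 and 6987 ± 2153 CPM in BEAS-2B. MT-ATP6 rose from 2422 ± 543 to 5643 ± 1453 CPM in BEAS-2B. The plus-strand tRNAs MT-TI and MT-TT fell in BEAS-2B (log2 changes of -2.08, adjusted p = 0.0306, and -1.80, 0.0379), and MT-TW had a change of -2.50 (0.0661), with line differences of -1.17 ± 0.996, -0.04 ± 0.72 and -1.96 ± 1.40. The libraries were made with a kit for polyadenylated RNA, which captures tRNAs and the sparsely polyadenylated ND6 transcript only in part. Counts that ignore strand gave MT-ND6 a line difference of -1.35 (adjusted p = 0.22), which add reads of the opposite strand to this gene, so the result rests on the strand-specific counts.

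**Figure D3:**
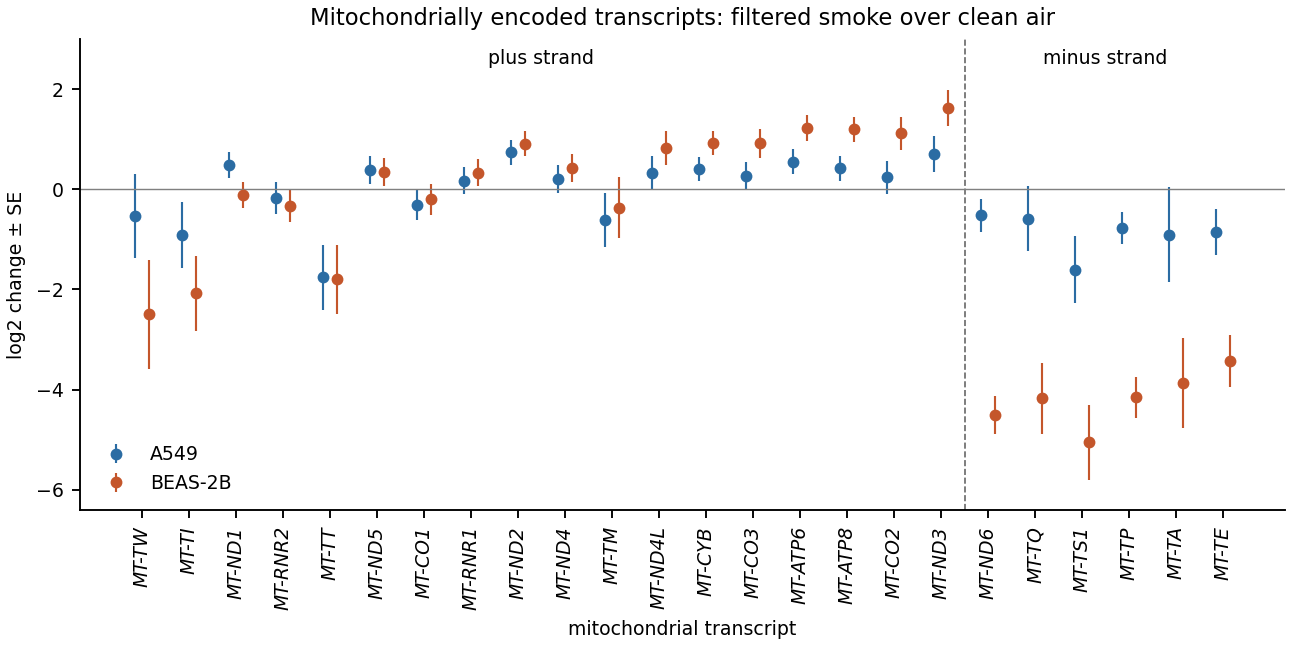
Log2 change with filtered smoke (± SE, 3 libraries a group) of 24 mitochondrial transcripts, blue for A549 and orange for BEAS-2B, with plus-strand genes left of the dashed line and minus-strand genes right of it. All 6 minus-strand transcripts lie below -3 in BEAS-2B and above -2 in A549, while the protein-coding transcripts of the plus strand lie between -0.31 and 1.63 in both lines.

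PCLAF and CCNE1, genes of S phase, were lower in BEAS-2B relative to A549. PCLAF, which binds the sliding clamp PCNA at the replication fork (chromosome 15, 64364311 to 64387687), fell in BEAS-2B from 23.3, 18.9 and 18.4 CPM to 4.99, 4.32 and 3.35 CPM. In A549 it was at 20.2, 22.5 and 22.3 CPM with clean air and 33.1, 32.4 and 25.9 CPM with smoke. Controls of the lines overlapped and the exposed libraries were widely apart. PCLAF had the smallest p of all genes, with a line difference of -2.75 ± 0.27 (adjusted p = 0.00227, up to 0.0145 without BEAS-2B filtered 2). CCNE1, cyclin E1, which drives cells from G1 into S phase, rose in A549 from 29.1, 28.6 and 23.9 CPM to 46.3, 45.1 and 55.1 CPM and fell in BEAS-2B from 20.3, 13.5 and 15.3 CPM to 8.30, 11.1 and 9.16 CPM (-1.62 ± 0.28, adjusted p = 0.0186, up to 0.0679 without BEAS-2B filtered 1).

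Of 38 DNA replication genes tested, CCNE1 was the 1 that passed and 0 were higher, with a median of -0.27. With the block 7 were lower and 0 higher, CCNE2 (-1.43 ± 0.39; unblocked adjusted p = 0.0993, blocked 0.0052) and the origin-binding gene ORC1 (-1.13 ± 0.25; 0.0624 and 0.00589) among them. Of 33 mitosis genes 0 passed without the block and 5 were lower with it, and 31 of the 33 estimates were below 0 (median -0.45). BMI1, a Polycomb repressor of CDKN2A, fell in BEAS-2B from 18.9, 27.7 and 29.4 CPM to 6.84, 8.10 and 9.19 CPM with no passing change in A549 (-1.54 ± 0.31, adjusted p = 0.0441; up to 0.123 without A549 control 1, lost with all 18 libraries, and chosen after its values were seen). MAP2K6, the kinase upstream of p38, fell from 3.87 ± 0.832 to 0.323 ± 0.0996 CPM in BEAS-2B and from 66.8 ± 11.2 to 40.7 ± 7.61 CPM in A549 (-2.81 ± 0.37, adjusted p = 0.00518, up to 0.0249 without BEAS-2B filtered 2). AMH, a hormone of the TGF-beta family, fell in BEAS-2B from 29.1, 13.8 and 16.4 CPM to 5.12, 4.35 and 4.29 CPM, with 8.19 and 10.6 CPM in A549 (-2.48 ± 0.37, adjusted p = 0.0103, up to 0.0429 without BEAS-2B filtered 2). GLI1, the transcription factor that reports Hedgehog signalling, rose from 7.91 to 14.8 CPM in A549 and fell from 1.21 to 0.544 CPM in BEAS-2B (-2.07 ± 0.37, adjusted p = 0.0213, up to 0.0833 without BEAS-2B filtered 2, and lost in limma-voom).

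No gene of the oxidant and protein stress lists had a passing line difference. Of 34 NRF2 targets tested, 0 line differences passed, and 5 were higher and 0 lower with the block (median 0.43, with 30 of 34 estimates above 0). HMOX1, which degrades haem, was among those 5. It fell in A549 from 1268, 1074 and 1313 CPM to 272, 268 and 326 CPM, while in BEAS-2B sample 1 went from 845 to 355 CPM, sample 2 from 573 to 1110 CPM and sample 3 from 284 to 793 CPM. The A549 groups were far apart, and the BEAS-2B groups overlapped with sample 1 against the others. The line difference was 2.49 ± 0.56 (adjusted p = 0.0624, with 0.0137 under the block and 0.0178 without BEAS-2B control 1). That last fit, 1 of 12, drops the control of the sample that went against the others, and the rest are not given. NQO1, a quinone reductase, had near-equal changes (0.34 and 0.43; line difference 0.09 ± 0.30), and its control level was 1578 ± 116 CPM in A549 and 323 ± 66.9 CPM in BEAS-2B. ALDH3A1, an aldehyde dehydrogenase, went from 2193, 2161 and 1792 CPM to 4165, 4853 and 2407 CPM in A549 and from 14.97, 7.74 and 7.37 CPM to 5.37, 5.12 and 2.32 CPM in BEAS-2B (-2.13 ± 0.52, adjusted p = 0.0751; 0.0037 with the block). TXNRD1 and GCLM, for thioredoxin and glutathione, fell in both lines by 0.81 to 1.22 on the log2 scale.

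HSPA6, a strictly inducible HSP70 chaperone, went from 4.48, 1.74 and 5.67 CPM to 153, 349 and 434 CPM in A549 and from 12.3, 4.75 and 3.94 CPM to 13.6, 115 and 42.3 CPM in BEAS-2B. The BEAS-2B groups overlapped and their smoke values were widely spread, and the line difference of -3.28 ± 0.98 did not pass (adjusted p = 0.134; 0.119 with the block). Of 26 heat shock genes tested 0 passed in either direction (median -0.07), and DNAJB1, a co-chaperone, rose by 1.10 and 1.17 (line difference 0.06 ± 0.41). Among 34 ATF4 targets 0 passed, and with the block 3 were higher and 2 lower, near the 5.13% and 4.57% of all genes tested. TRIB3, a pseudokinase that feeds back on ATF4, was at 14.9, 13.4 and 10.7 CPM and then 56.7, 46.4 and 32.5 CPM in BEAS-2B, with overlapping groups in A549 (1.62 ± 0.37, adjusted p = 0.0649; 0.00353 with the block), and CHAC1, which degrades glutathione, had a difference of 1.95 ± 0.64 (0.167; 0.0201). ATF3 rose by 2.51 and 2.44 (-0.06 ± 0.54, and +0.35 without BEAS-2B filtered 1), and DDIT3, the CHOP factor, by 2.03 and 1.76 (-0.27 ± 0.52). At an unadjusted p under 0.05 there were 2639 line differences among all genes tested.

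**Figure D4:**
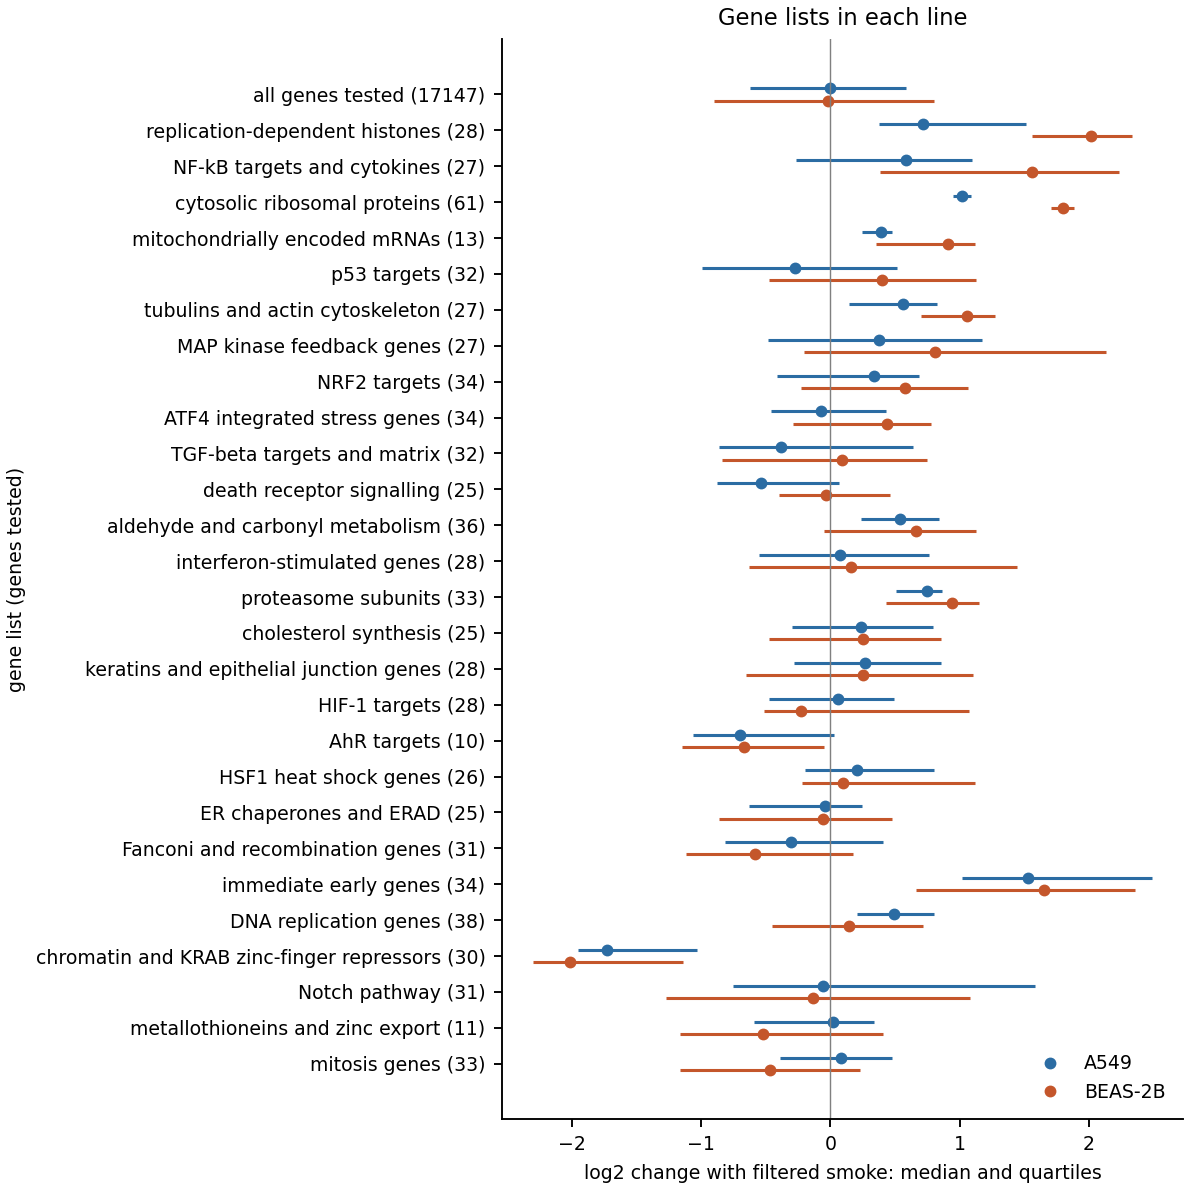
Median (point) and quartiles (bar) over genes of the log2 change with filtered smoke, for 27 gene lists and all genes tested, blue for A549 and orange for BEAS-2B, ordered by the median line difference. The replication-dependent histones, NF-kB targets and ribosomal protein genes lie furthest to the right in BEAS-2B relative to A549, and the mitosis genes furthest to the left.

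Ribosomal protein and histone genes had higher median changes in BEAS-2B, with no single gene passing without the block. The 61 cytosolic ribosomal protein genes had medians of 1.02 in A549 and 1.80 in BEAS-2B, with 0 passing line differences and 15 higher with the block (median 0.77, and 0.73 to 0.79 above the median of all genes under 3 other scalings). The 28 replication-dependent histone genes tested had medians of 0.72 and 2.02, with 0 passing and 9 higher with the block (median 1.03), and members of this family share near-identical copies. The line difference fell with gene span over genes measured in both lines, from a median of 0.27 in the shortest of 5 equal groups (up to 11.3 kb) to -0.10 in the longest (over 97.9 kb). With offsets for GC content and exonic length in the fit, those medians were 0.22 and 0.00186. The list medians were then 0.745 for ribosomal protein genes and 0.88 for histone genes. The part of span in the 2 lists was not tested. The 30 chromatin and KRAB zinc-finger repressors fell in both lines (medians -1.73 and -2.01), with 0 passing line differences.

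Markers of other lung cell types were mostly without a passing line difference. Of 6 ciliated cell markers 1 passed, DNAH5, an axonemal dynein, which fell from 5.82 to 3.19 CPM in A549 and rose from 2.23 to 6.06 CPM in BEAS-2B (2.30 ± 0.37, adjusted p = 0.0135, up to 0.0527 without A549 control 2). The 6 markers summed to 25.8 to 38.8 and 33.0 to 48.8 CPM in A549 and 3.69 to 4.69 and 7.87 to 8.16 CPM in BEAS-2B, controls first, and none was at 0. Of 5 club and goblet cell markers 2 had enough counts to be tested and 1 passed, the mucin MUC5AC, with 45, 68 and 80 raw counts in BEAS-2B controls and 0, 0 and 1 with smoke, and 18.4 CPM remaining of 27.9 in A549 (adjusted p = 0.00317). BPIFA1 of that list was at 0 in all libraries, and the list summed to 102 to 183 and 58.4 to 129 CPM in A549 and 1.73 to 2.74 and at most 0.172 CPM in BEAS-2B. No line difference passed among the markers with enough counts to be tested, which were 7 of 7 for fibroblasts, 5 of 5 for basal cells, 4 of 5 for alveolar type 1 and 3 of 7 for alveolar type 2 cells, 2 of 5 for endothelial cells and 1 of 6 for immune cells. The part of a shift in cell state in the results above was not tested.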

How the data were processed

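The authors deposited raw read counts per gene for each library, made by STAR 2.7.10b on GRCh38 per the submitters' processing notes. Per the labels' protocols, the RNA came from a Trizol extraction and the sequencing libraries from a TruSeq mRNA kit. The strand-specific column was used, since it held 11.7 to 17.1 times the gene counts of the opposite one. The 4 summary lines per file were left out. Of 62649 gene IDs, 42300 had a symbol.

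Low counts were filtered (filterByExpr), libraries were scaled by TMM, and the 12 libraries were fitted together with edgeR 4.0.16 in R 4.3.3 (robust quasi-likelihood test, Benjamini-Hochberg adjustment over all genes tested, threshold 0.05). The fit was tested on simulated data. SE is the absolute log2 change over the square root of F. A gene counted as measured in a line from 1 CPM on. Samples with the same number in the labels deviated together from their group means (r of 0.213, 0.202 and 0.320 in A549 and 0.565, 0.153 and 0.549 in BEAS-2B). The number was taken to pair them, by a rule of r over 0.1 in every same-numbered pair. Samples with different numbers had r of -0.246 to 0.0742 in A549 and -0.578 to 0.418 in BEAS-2B. There control 2 went with filtered 3 (0.418) more than with filtered 2 (0.153).

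Members and lists were chosen with earlier results of these data known. Genes were named if protein-coding, measured in both lines, with at least 5 CPM on average and a count in every library, and if they had the 10 highest or lowest differences, were among the clearest opposite or same-direction changes, led a list, or belonged to 35 sentinel genes. List members named beside blocked counts, and genes said to be so, were picked after their values were seen. Alternatives were other scalings and filters, DESeq2 1.42.0, limma 3.58.1 (voom), the replicate block, GC and length offsets, thinned counts, counts that ignore strand, all 18 libraries, and each library left out. Some genes that the naming rule or a list gave are not reported here.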

Additional observations from a re-analysis of the deposited data

Results flagged for a closer look

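In 113 genes the response to filtered smoke differed between the lines by the test of that difference. Each gene named here was picked out because its own difference passed that test.

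Values in brackets are log2 line differences, which compare responses and not levels. The response was lower in BEAS-2B than in A549 for EGR3 (-4.86), MT-ND6 (-3.99), NRARP (-3.54), EGR2 (-3.52), ADAMTS1 (-3.4) and MAP2K6 (-2.81). So it was for PCLAF (-2.75), AMH (-2.48), ANKRD37 (-2.41), BMF (-2.33), GLI1 (-2.07) and CCNE1 (-1.62). It was also lower for ACSM3, an acyl-CoA synthetase (-2.90), ADGRB2, an adhesion receptor (-2.06), SEMA6B, a guidance protein (-1.85), RAPGEF6 (-1.50), PHETA1 (-1.39) and CLDN15, a claudin (-1.25). Of these 6, ADGRB2 alone passed under every setting run; SEMA6B, RAPGEF6, PHETA1 and CLDN15 were lost in limma-voom and after thinning, and the first 2 of them also with all 18 libraries. With 1 library left out, RAPGEF6 passed in 1 of 12 fits and SEMA6B, PHETA1 and CLDN15 in 2 each. ACSM3 passed in all 12 and was lost after thinning.

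The response was higher in BEAS-2B for TNFRSF10B (1.31), LIF (1.53), TNFRSF10A (1.54), DUSP4 (1.72), TRAF1 (1.94), PLK3 (2.01), RAP1GAP2 (2.02), CFAP251 (2.05) and NRG1 (2.09). It was also higher for ADAM8, a surface protease (1.77), LETM2 (1.82), NOPCHAP1 (2.18) and TMEM92 (2.46). NOPCHAP1 rose from 17.1 to 52.8 CPM in BEAS-2B, against 29.4 and 20.01 CPM in A549, and was lost with GC and length offsets, passing in all 12 fits with 1 library left out. TMEM92 was lost under a stricter filter, in limma-voom and after thinning, and passed in 7 of the 12. ADAM8 was lost after thinning and passed in 3 of the 12, and LETM2 was lost in counts that ignore strand and passed in 9.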

How the results depend on the processing

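The line differences that passed numbered 113, and 118, 120, 98, 146 and 146 with DESeq2 size factors, a stricter filter, limma-voom, all 18 libraries and counts that ignore strand. They numbered 951 on library size alone (33 higher and 918 lower; the median of all genes then moved to -0.55), 169 with upper-quartile scaling (43 higher and 126 lower), 612 with no low-count filter, 738 with DESeq2's Wald test, 696 with GC and length offsets, 75 after thinning, 1664 with the replicate block and 2740 with the block and the offsets. Leaving out 1 library gave 29 (A549 control 2) to 775 (BEAS-2B control 1), with 43, 53, 53, 70, 45 and 56 without A549 control 1, A549 control 3, A549 filtered 2, BEAS-2B filtered 1, BEAS-2B filtered 2 and BEAS-2B control 3. Without both BEAS-2B libraries of number 1, a setting chosen after seeing the data, 679 passed. The cause was not tested.

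Opposite directions were called for 31 genes, and for 72 on library size alone, 74 with DESeq2's Wald test, 117 with the block, 86 with the offsets, 193 with both, 19 after thinning, 63 without the BEAS-2B libraries of number 1, and 6 to 62 with 1 library left out. The A549 response alone (5638 genes) came to 8555 with the block and to 1815 (without filtered 2) to 7492 (without filtered 3), with 2879, 1975, 2735 and 2766 without control 1, filtered 1, control 2 and control 3. The BEAS-2B response stayed within 1.5 times of 9574 genes in all 26 settings. The fit with the block kept all 113 calls. With 1 library left out, 27 of the 113 passed in every fit. Of the 12 such fits, TRAF1 passed in 6, EGR3, ANKRD37 and DUSP4 in 4 each, and ADAMTS1 in 3. LIF and TNFRSF10B passed in 2 each and BMI1 in 1. Leaving out almost any 1 library thus lost the calls of LIF, TNFRSF10B and BMI1.

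Among the named genes the sign turned in 39 pairs of a gene and a setting, none of them in a gene that had passed. On library size alone DNAJB1 was at -0.46, NQO1 at -0.44, TXNRD1 at -0.17, GCLM at -0.16 and AKR1C1 at -0.0118; with upper-quartile scaling DNAJB1 was at -0.0325 and NQO1 at -0.0133. With GC and length offsets CXCL8 was at 0.10 and DNAJB1 at -0.0355, and with the block added at 0.14 and -0.0422. Without the BEAS-2B libraries of number 1, GADD45B was at 0.27, HSPH1 at 0.0426, DDIT3 at 0.66, CYP1A1 at 0.0165 and ATF3 at 0.31. With 1 library left out the values ran from -1.56 to 0.46 for EGR1, -0.85 to 0.0323 for MT1X, -0.70 to 0.10 for GADD45B, -0.59 to 0.13 for HSPH1, -0.52 to 0.02005 for CXCL8, -0.57 to 0.36 for DDIT3, -2.17 to 0.33 for CYP1A1, -0.35 to 0.35 for ATF3, -0.19 to 0.39 for DNAJB1, -0.064 to 0.27 for NQO1 and -0.12 to 2.17 for SRXN1.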

Other observations

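Complete smoke, which keeps its particles, was compared with the same clean air controls, so its values below share those controls and are set beside the filtered values only as a description. They come from a fit of all 18 libraries, and the filtered values from the fit of 12. BEAS-2B complete 3 had 31.7% of reads mapped to several places and 12.6% outside genes. The other BEAS-2B complete libraries had 10.2 to 12.9% and 1.22 to 1.40%. NRARP changed by 3.99 in A549 and 0.96 in BEAS-2B with complete smoke (log2), and by 4.57 and 1.04 with filtered smoke. NRG1 changed by -0.95 and 1.32, against -0.86 and 1.23. PCLAF changed by 0.48 ± 0.43 (SE) and -0.12 ± 0.43 with complete smoke, against 0.49 ± 0.19 and -2.26 ± 0.20 with filtered smoke. BMF changed by -0.23 ± 0.38 and -4.75 ± 0.44 with complete smoke, against -2.08 ± 0.27 and -4.41 ± 0.29. Complete smoke was not tested against filtered smoke here.

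Among called genes picked after their values were seen, PPARG, a nuclear receptor of lipid metabolism, was at 28.5 CPM in both A549 groups and rose from 2.85 to 9.02 CPM in BEAS-2B (1.66 ± 0.26, adjusted p = 0.0134, up to 0.0613 without A549 control 2). IRAK2, a kinase of the IL-1 receptor pathway, fell from 41.5 to 20.1 CPM in A549 and rose from 5.88 to 8.78 CPM in BEAS-2B (1.62 ± 0.30, adjusted p = 0.0269, up to 0.101 without BEAS-2B control 3, and lost on library size alone).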
